A study of Mus musculus with 20 samples.

Results

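The genes described here are 10 genes of liver macrophages, out of the 54532 genes in the deposited count table, followed across the livers of sham-operated and gastric bypass mice on chow or a high-fat diet (HFD). They were taken by symbol from the table's Ensembl identifiers. Of these genes, 5 mark Kupffer cells (*Clec4f*, *Vsig4*, *Timd4*, *Cd5l* and *Marco*), 2 mark macrophages in general (*Adgre1* and *Cd68*) and 3 are used as markers of lipid-associated macrophages (*Trem2*, *Gpnmb* and *Cd9*). Male C57BL/6 mice were made obese with 12 weeks of HFD, received a Roux-en-Y bypass of the stomach (RYGB) or a sham operation, and ate either chow or HFD during the next 8 weeks. Sham mice thus formed the groups Sham Chow and Sham HFD, and bypass mice the groups RYGB Chow and RYGB HFD, each of 5 mice with 1 liver library per mouse. All 20 mice, the Sham Chow controls included, had been obese on HFD before surgery, and livers of mice never fed HFD were not analysed here. The livers came from a random selection within an earlier cohort of the same groups. The study asked how surgery and the diet eaten afterwards shape gene expression in the liver.

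Kupffer cells are the resident macrophages of the liver sinusoids. They take up bacteria, dying cells and old red cells from the blood, and they renew themselves locally under signals from the endothelial and stellate cells around them. In fatty liver, part of this population can be replaced by macrophages derived from blood monocytes, some of which adopt a lipid-associated state in which the receptor Trem2, which binds lipids and signals through the adaptor Tyrobp, goes together with genes of lysosomes and of lipid handling. Kupffer cells are a small part of the liver's mass, so a whole-liver library holds mainly hepatocyte RNA. In such bulk samples fewer cells of a type and less RNA per cell cannot be told apart.

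Promoters matched to the members by symbol were held by the RefSeq table (GRCm38.p6) for 9 of the 10 genes, the exception being *Adgre1*. PU.1, the factor that specifies macrophages, binds purine-rich sites, and the letters GAGGAA were searched for on both strands (TTCCTC on the reverse) in the 250 bases before each start. They occurred in 5 of the 9 member promoters (*Vsig4*, *Cd5l*, *Marco*, *Cd68* and *Trem2*) and in 23.3% of all 32851 promoters. A match is a description of the letters, not a binding site. The last 100 bases before the start of 3 of these genes are printed from 5′ to 3′ on the gene's strand, because they show where the match lies in a Kupffer cell complement receptor, a secreted Kupffer cell protein and the lipid receptor, with the match in capitals. The windows are chrX:96293439-96293538 on the minus strand for *Vsig4*, chr3:87357781-87357880 on the plus strand for *Cd5l* and chr17:48346301-48346400 on the plus strand for *Trem2*.
Vsig4: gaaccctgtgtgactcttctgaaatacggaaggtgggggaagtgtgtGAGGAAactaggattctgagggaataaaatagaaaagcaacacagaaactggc
Cd5l: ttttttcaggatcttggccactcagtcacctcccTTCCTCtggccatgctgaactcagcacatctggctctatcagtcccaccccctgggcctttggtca
Trem2: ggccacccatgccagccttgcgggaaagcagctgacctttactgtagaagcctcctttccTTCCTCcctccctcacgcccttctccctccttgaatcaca

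The match began 53 bases before the start in *Vsig4*, 66 in *Cd5l* and 40 in *Trem2*. Of the other letters searched in the same windows and on both strands, TGCTGA, part of the sites of large Maf factors, occurred in the promoters of *Clec4f*, *Timd4* and *Cd5l* (16.1% of all promoters). The E-box CACGTG, which TFEB and its relatives bind at lysosomal genes, occurred in 0 of the 9 (6.02% of all promoters), and TATAAA also in 0 (12.4%). The GC box GGGCGG occurred in *Cd68* and *Cd9* (32.7% of all promoters).

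Each library held between 14604854 and 22537498 counts, with a median of 19056997. A gene was tested if its CPM, the read count relative to the library's total, reached 2 in 3 or more mice, and all 10 members were among the 12289 genes that did. CPM values given here were scaled with edgeR's TMM factors. RYGB Chow 3 stood apart from its group for the macrophage genes. It was the highest of the 20 mice for 8 of the 10 members, all but *Trem2* and *Gpnmb*, and Sham Chow 5 was the lowest for 6. RYGB Chow 3 also held the lowest summed level of 6 hepatocyte markers in its group (72293 CPM, with the group's highest mouse at 121660). Results of the members that rest on this mouse are given with and without it, apart from a count at unadjusted p-values.

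Levels differed widely among the members. Per kilobase of exon, the mean over the 20 mice was 44.0 CPM per kb for *Cd5l* and 38.0 for *Clec4f*, followed by 16.4 for *Vsig4*. *Cd9* (8.45 CPM per kb), *Cd68* (6.93), *Marco* (5.74) and *Adgre1* (5.37) formed a middle tier and *Timd4* lay at 2.84. *Trem2* (0.253 CPM per kb) and *Gpnmb* (0.251) were the lowest. Within this order, *Cd5l* and *Clec4f*, neighbouring genes of the middle tier, and *Trem2* and *Gpnmb* differed by less than the spread between mice. For the last pair only 2 to 67 and 0 to 77 reads were counted per mouse, so that counting error alone was large for them.

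**Figure D1:**
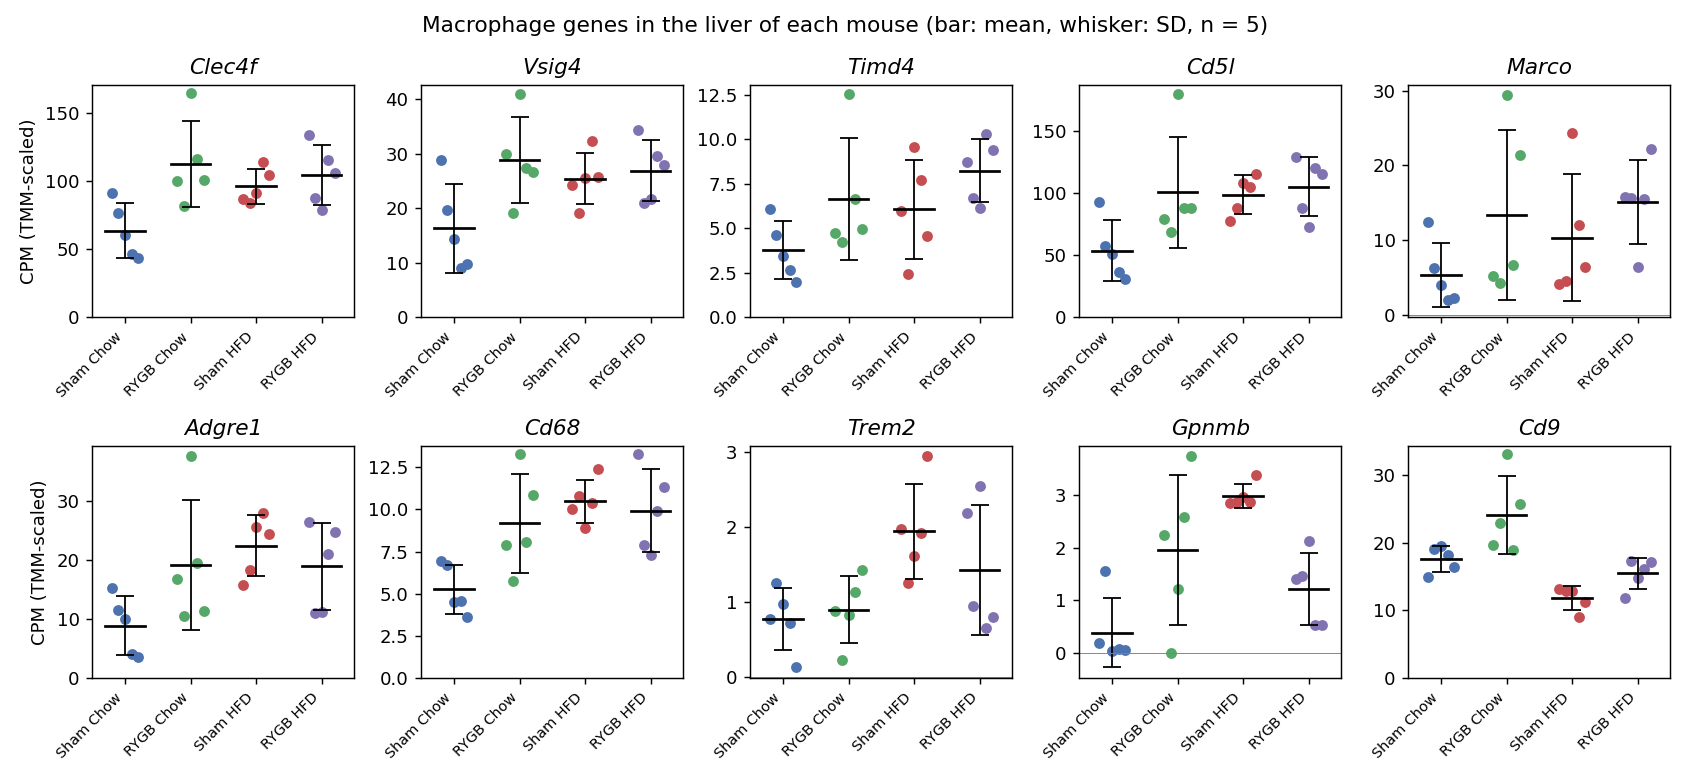
TMM-scaled CPM of the 10 members in each of the 20 mice, a panel per gene with its own linear axis, by group; points are mice, the bar is the mean and the whisker the SD (n = 5). Sham Chow held the lowest mean for 9 genes, *Cd9* was lowest in Sham HFD, and a single RYGB Chow mouse lay at the top of 8 panels.

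*Clec4f* (ENSMUSG00000014542, chromosome 6 from 83644542 to 83656187) encodes a C-type lectin receptor that in mice is found on Kupffer cells. Its level was 90.9, 76.5, 59.9, 46.0 and 43.5 CPM in the 5 Sham Chow mice, and 87.0, 83.9, 90.8, 114 and 104 CPM in Sham HFD. It was 99.7, 81.9, 164, 116 and 100.4 CPM in RYGB Chow and 133, 87.6, 78.5, 115 and 106 CPM in RYGB HFD. The 3 groups other than Sham Chow covered much the same range, and the Sham Chow mice spread from that range downwards. The means were 63.4 ± 20.2 CPM (SD, n = 5) for Sham Chow and 95.9 ± 12.5 for Sham HFD, and after bypass 112 ± 31.4 for RYGB Chow and 104 ± 21.9 for RYGB HFD.

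*Cd5l* (ENSMUSG00000015854, chromosome 3 from 87357881 to 87371073), which encodes a secreted scavenger protein known as apoptosis inhibitor of macrophages, had the same profile. The Sham Chow mice held 92.8, 57.6, 51.1, 36.6 and 30.5 CPM and the Sham HFD mice 77.8, 87.8, 108, 105 and 115 CPM. In RYGB Chow the values were 79.0, 68.3, 179.5, 87.8 and 88.1 CPM, and in RYGB HFD 129, 87.9, 72.9, 120.2 and 115 CPM. Sham Chow 1 lay within the Sham HFD range and the other 4 Sham Chow mice below it, while 1 RYGB Chow mouse lay far above all others.

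*Vsig4* (ENSMUSG00000044206, chromosome X from 96247203 to 96293438) encodes a complement receptor that clears bacteria from the blood. Sham Chow mice ran from 8.996 to 28.7 CPM and Sham HFD mice from 19.0 to 32.3, with RYGB Chow from 19.1 to 40.9 and RYGB HFD from 20.9 to 34.4. *Timd4* (ENSMUSG00000055546, chromosome 11 from 46810800 to 46844332), a phosphatidylserine receptor of long-lived resident Kupffer cells, ran from 2.00 to 6.08 CPM for Sham Chow and from 2.45 to 9.59 for Sham HFD, with RYGB Chow at 4.26 to 12.5 and RYGB HFD at 6.11 to 10.3. The mean of *Timd4* was highest in RYGB HFD (8.24 ± 1.77 CPM, n = 5), where the lowest mouse (6.11 CPM) was level with the highest Sham Chow mouse (6.08). *Marco* (ENSMUSG00000026390, chromosome 1 from 120474538 to 120505024), a class A scavenger receptor, was the most uneven of the Kupffer cell genes, with a 14.7-fold range over the mice. Its values overlapped between all groups, with 2.00 to 12.5 CPM for Sham Chow, 4.17 to 24.4 for Sham HFD, 4.36 to 29.3 for RYGB Chow and 6.40 to 22.2 for RYGB HFD.

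*Adgre1* (ENSMUSG00000004730, chromosome 17 from 57358691 to 57483527) encodes F4/80, the surface receptor by which mouse tissue macrophages are commonly stained. Sham Chow mice held 15.3, 11.6, 9.94, 4.07 and 3.64 CPM and Sham HFD mice 15.7, 18.3, 25.7, 28.1 and 24.5 CPM. RYGB Chow mice held 16.8, 10.6, 37.7, 19.5 and 11.4 CPM and RYGB HFD mice 26.4, 11.1, 11.2, 21.1 and 24.9 CPM. All Sham HFD mice lay above all Sham Chow mice, and both RYGB groups overlapped both sham groups.

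*Cd68* (ENSMUSG00000018774, chromosome 11 from 69664213 to 69666153) encodes macrosialin, a glycoprotein of macrophage lysosomes. Its level was 6.95, 6.68, 4.49, 4.57 and 3.64 CPM in Sham Chow and 10.03, 10.8, 8.87, 10.4 and 12.4 CPM in Sham HFD. It was 7.90, 5.76, 13.3, 8.07 and 10.9 CPM in RYGB Chow and 13.3, 7.91, 7.26, 9.88 and 11.3 CPM in RYGB HFD. The 5 Sham Chow mice lay below every Sham HFD mouse and below every RYGB HFD mouse, and 2 of them above the lowest RYGB Chow mouse.

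*Trem2* (ENSMUSG00000023992, chromosome 17 from 48346401 to 48354147) was counted at 0.773, 1.24, 0.971, 0.714 and 0.121 CPM in Sham Chow and at 1.97, 1.25, 1.60, 1.92 and 2.94 CPM in Sham HFD. In RYGB Chow it was 0.871, 0.215, 0.824, 1.12 and 1.42 CPM, and in RYGB HFD 2.18, 0.937, 2.54, 0.651 and 0.797 CPM. Sham HFD lay above Sham Chow without overlap, although the highest Sham Chow and the lowest Sham HFD mouse (1.24 and 1.25 CPM) were nearly equal, and RYGB HFD fell into 2 high and 3 low mice.

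*Gpnmb* (ENSMUSG00000029816, chromosome 6 from 49036546 to 49070929) encodes a transmembrane glycoprotein of lysosome-rich macrophages. The Sham Chow libraries held 4, 30, 1, 1 and 1 reads of it (0.193, 1.55, 0.0463, 0.0714 and 0.0606 CPM). The Sham HFD libraries held 49, 62, 70, 48 and 77 reads (2.84, 2.87, 2.96, 2.88 and 3.38 CPM), a narrow range of which only Sham HFD 5 stood out. In RYGB Chow 41, 0, 22, 53 and 66 reads were counted (2.23, 0, 1.21, 2.59 and 3.74 CPM), and in RYGB HFD 26, 28, 37, 9 and 8 reads (1.41, 1.46, 2.13, 0.532 and 0.532 CPM). All 5 Sham HFD mice thus lay above all mice of Sham Chow and of RYGB HFD, and RYGB Chow ranged from no reads to the highest value of the series. A count of 0 in a library leaves room for up to 3 reads.

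*Cd9* (ENSMUSG00000030342, chromosome 6 from 125460266 to 125494791) encodes a tetraspanin of the cell surface that is also made by many cells that are not macrophages. Its level was 14.9, 19.0, 19.6, 18.3 and 16.5 CPM in Sham Chow and 13.1, 12.9, 12.8, 9.05 and 11.2 CPM in Sham HFD. It was 19.7, 22.9, 33.2, 19.0 and 25.8 CPM in RYGB Chow and 11.8, 17.3, 14.9, 16.1 and 17.2 CPM in RYGB HFD. Each HFD group thus lay below the chow group of the same surgery, with no overlap between them. The gene overlaps 2 genes on the opposite strand, *Gm28809* and *Gm26728*, for which 11 and 4 reads were counted over all 20 mice.

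The diet comparison in sham mice, Sham Chow vs. Sham HFD, set continued HFD feeding against a switch to chow, without bypass surgery. According to the study, Sham HFD mice were heavier than the mice of every other group. Body weight can therefore not be told apart from diet in this contrast, or from surgery in Sham HFD vs. RYGB HFD. *Clec4f*, *Cd5l*, *Adgre1*, *Cd68*, *Trem2* and *Gpnmb* were higher and *Cd9* was lower in Sham HFD. In edgeR's quasi-likelihood test with Benjamini-Hochberg adjustment over all tested genes, 6 of the 10 members passed an adjusted p-value of 0.05 as higher and 1 as lower, while 10.9% of all tested genes passed as higher and 10.7% as lower. The median log2 fold change of the members was 0.89, and that of all tested genes was close to 0.

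Among the Kupffer cell genes, *Cd5l* rose by 0.88 on the log2 scale, with a standard error of 0.27 (adjusted p = 0.0243). *Clec4f* rose by 0.60 (0.20, adjusted p = 0.0377), where the first value in brackets is again the standard error, as it is for the genes that follow. Both calls depended on single mice. *Clec4f* missed the threshold in 6 and *Cd5l* in 4 of the 20 models that each left out 1 mouse. *Vsig4* had a log2 fold change of 0.63 (0.25, adjusted p = 0.0817), *Timd4* of 0.67 (0.35, adjusted p = 0.173) and *Marco* of 0.91 (0.59, adjusted p = 0.279), and they did not pass. Of the general macrophage genes, *Adgre1* had a log2 fold change of 1.31 (0.38, adjusted p = 0.0181), a 2.49-fold higher level, and *Cd68* of 0.99 (0.22, adjusted p = 0.00323). Both passed in all 20 models with 1 mouse left out. For each of the 2 genes the sham groups did not overlap (exact permutation test of 5 mice against 5, two-sided p = 0.00794, the smallest value that this size allows).

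*Gpnmb* had the highest fold change of the members, 2.89 on the log2 scale (0.75, adjusted p = 0.00956, exact permutation test p = 0.00794). It rested on few reads in Sham Chow and on Sham Chow 2, which held 30 of them. Without that mouse the log2 fold change was 4.87 (adjusted p = 0.000430), a value that depends on how the model treats counts near 0. *Trem2* rose with 1.31 (0.46, adjusted p = 0.0472), and lost the call in 10 of the 20 models with 1 mouse left out. *Cd9* fell by 0.58 on the log2 scale (0.15, adjusted p = 0.00831) and passed in all 20 of these models. Scaled by library size alone, it missed the threshold (-0.45, adjusted p = 0.0524). Over all members, 4 to 7 passed when 1 mouse was left out, and 4 passed without Sham Chow 3, 4 or 5 or without Sham HFD 5. The groups did not overlap for *Adgre1*, *Cd68*, *Trem2* and *Gpnmb* in the higher direction, where 8.48% of tested genes did not, and for *Cd9* in the lower direction, where 8.06% did not.

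**Figure D2:**
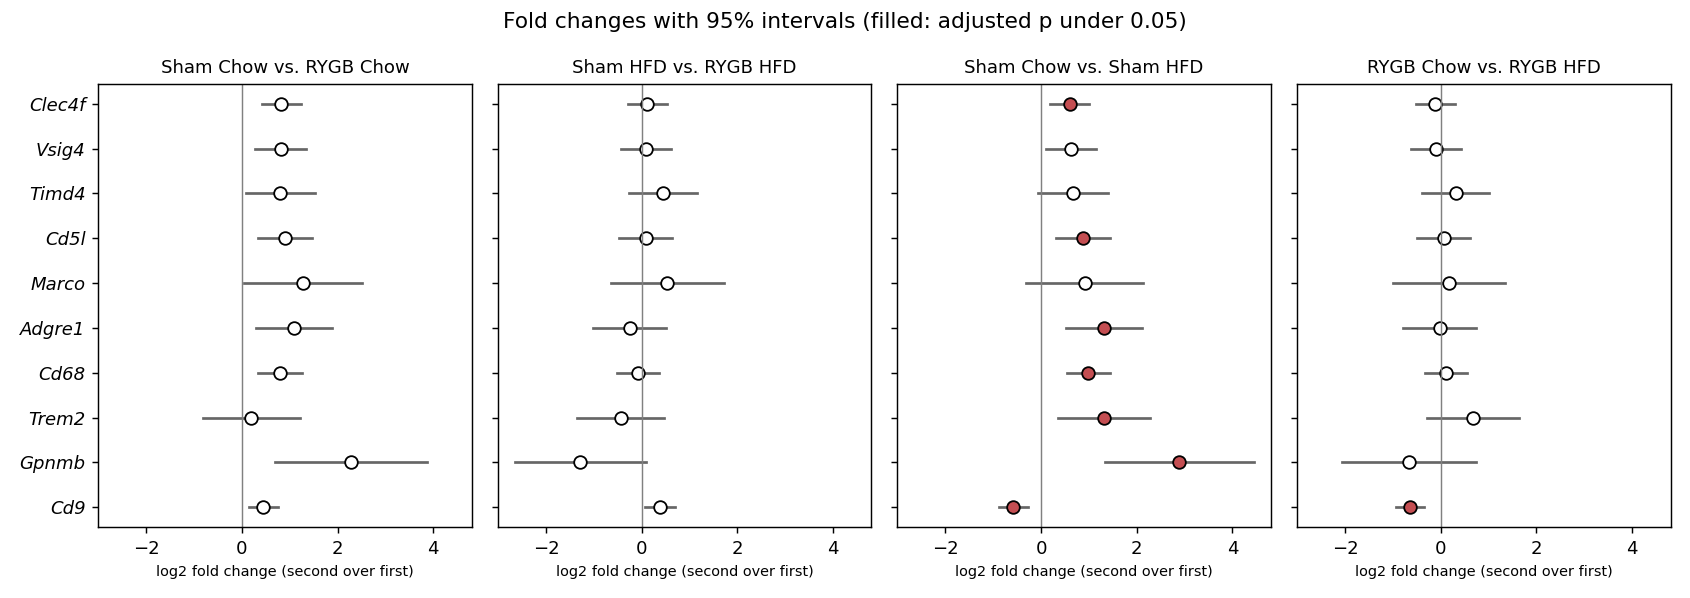
Log2 fold change of each member with its 95% interval in the 4 pairwise contrasts (second group over first); filled points passed an adjusted p-value of 0.05. Filled points are found in Sham Chow vs. Sham HFD (7 genes) and, for *Cd9*, in RYGB Chow vs. RYGB HFD.

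The diet comparison after bypass, RYGB Chow vs. RYGB HFD, gave a call for *Cd9* alone, which fell by 0.64 on the log2 scale (0.14, adjusted p = 0.0172) with no overlap between the groups (exact permutation test p = 0.00794). That is 1 of 10 members lower, against 1.65% of all tested genes called lower and 2.41% that did not overlap in this direction. Without RYGB Chow 3, its highest mouse, the log2 fold change was -0.50 (adjusted p = 0.0421), and without RYGB HFD 1, its lowest, it missed the threshold with an adjusted p of 0.0512. The other 9 members had log2 fold changes between -0.67 for *Gpnmb* and 0.68 for *Trem2*, with adjusted p-values of 0.469 and above. For *Clec4f* the 95% interval ran from -0.52 to 0.30 and for *Cd68* from -0.33 to 0.56. The sham estimates of these genes (0.60 and 0.99) lay outside, as did those of *Vsig4*, *Cd5l*, *Adgre1* and *Gpnmb* for their own intervals. Those of *Timd4*, *Marco*, *Trem2* and *Cd9* lay inside. The intervals leave out the error of the sham estimates. In the interaction test, which includes it, *Clec4f* (adjusted p = 0.151) and *Cd68* (adjusted p = 0.1002) did not pass.

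The surgery comparison on chow, Sham Chow vs. RYGB Chow, shares its Sham Chow mice with the diet comparison in sham mice. All 10 members had a higher level in RYGB Chow, with a median log2 fold change of 0.82. None of the 10 passed after adjustment in edgeR's test, in which 0.057% of all tested genes passed in either direction. At an unadjusted p-value under 0.05, 9 members and 10.8% of all tested genes passed. With DESeq2 in place of edgeR, *Clec4f* (adjusted p = 0.0156) and *Cd68* (adjusted p = 0.0487) passed, where 0.749% of the genes DESeq2 tested did, and with limma-voom 0 members passed.

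In this contrast the log2 fold change was 0.82 for *Clec4f* (0.20, adjusted p = 0.148), 0.81 for *Vsig4* (0.25, adjusted p = 0.257), 0.90 for *Cd5l* (0.27, adjusted p = 0.235) and 1.09 for *Adgre1* (0.38, adjusted p = 0.296). *Gpnmb* had the highest value, 2.28 (0.76, adjusted p = 0.280), and *Trem2* the lowest, 0.20 (0.49, adjusted p = 0.928). The groups overlapped for each of the 10 genes, and 0.74% of all tested genes lay higher without overlap. Without RYGB Chow 3 all 10 values were still above 0, with a median of 0.64 and adjusted p-values of 0.413 and above. The value of *Timd4* was 0.80 with this mouse and 0.44 without it, and that of *Marco* 1.28 and 0.76. That of *Cd9* was 0.45 (0.14, adjusted p = 0.265) with it and 0.31 (adjusted p = 0.608) without it.

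The surgery comparison on HFD, Sham HFD vs. RYGB HFD, asked what bypass changes while the diet stays high in fat. None of the 10 members passed after adjustment, where 16.4% of all tested genes did, and 1 of 10, *Cd9*, passed at an unadjusted p-value under 0.05, as did 30.7% of all tested genes. DESeq2 and limma-voom also called 0 members. The 95% intervals of the Kupffer cell genes all included 0. The log2 fold change of *Clec4f* was 0.12 (95% interval -0.29 to 0.53), that of *Vsig4* 0.08 (-0.44 to 0.61), that of *Cd5l* 0.09 (-0.46 to 0.64), that of *Timd4* 0.44 (-0.26 to 1.15) and that of *Marco* 0.54 (-0.64 to 1.73). *Gpnmb* was lower in all 5 RYGB HFD mice than in any Sham HFD mouse, a pattern found for 7.43% of all tested genes in this direction. Its log2 fold change was -1.28 (0.66, adjusted p = 0.195 in edgeR, exact permutation test on the single gene p = 0.00794). In a model of these 2 groups alone it passed, with an adjusted p of 0.0157. *Cd9* had a value of 0.39 on the log2 scale (0.15, adjusted p = 0.0778), and passed without RYGB Chow 3, a mouse of neither group that enters the shared estimate of the spread (adjusted p = 0.0434), or without RYGB HFD 1 (adjusted p = 0.0343).

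The difference between the diet effects of RYGB and sham mice was tested as the surgery by diet interaction. It was below 0 for all 10 members, and *Gpnmb* alone passed, with a value of -3.56 on the log2 scale (1.01, adjusted p = 0.0440), while 2.58% of all tested genes passed as lower. This call was not stable, since it was made in 4 of the 20 models with 1 mouse left out and not by DESeq2 (adjusted p = 0.0503) or limma-voom (adjusted p = 0.154). Without Sham Chow 2 the value was -5.54 (adjusted p = 0.00299). For *Cd68* the interaction was -0.87 (0.30, adjusted p = 0.1002), for *Adgre1* -1.34 (0.53, adjusted p = 0.148) and for *Clec4f* -0.70 (0.28, adjusted p = 0.151). Without RYGB Chow 3 the median of the 10 interaction values was -0.55, against -0.73 with it. That of *Cd9* was then above 0 (0.073) and that of *Timd4* near 0 (-0.0087), while *Gpnmb* still passed in edgeR's test (-3.70, adjusted p = 0.0464).

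The levels of the members were also compared mouse by mouse, on log2 of CPM + 0.5 over the 20 mice. The mice share their groups and each library's scaling, so the coefficients are descriptions. *Clec4f* went with *Vsig4* at a Pearson r of 0.97, with *Cd5l* at 0.96, with *Adgre1* at 0.92 and with *Cd68* at 0.88, and after the group means were removed with r of 0.94, 0.95, 0.94 and 0.85. *Trem2* and *Gpnmb* formed a pair with r of 0.77 (0.74 within groups), and went less closely with *Clec4f* (0.39 and 0.51). *Cd9* followed neither set, with r of 0.02 to *Clec4f* and -0.53 to *Trem2*. Without RYGB Chow 3 its r to *Clec4f* was -0.29, and the r of *Clec4f* and *Vsig4* was again 0.97.

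**Figure D3:**
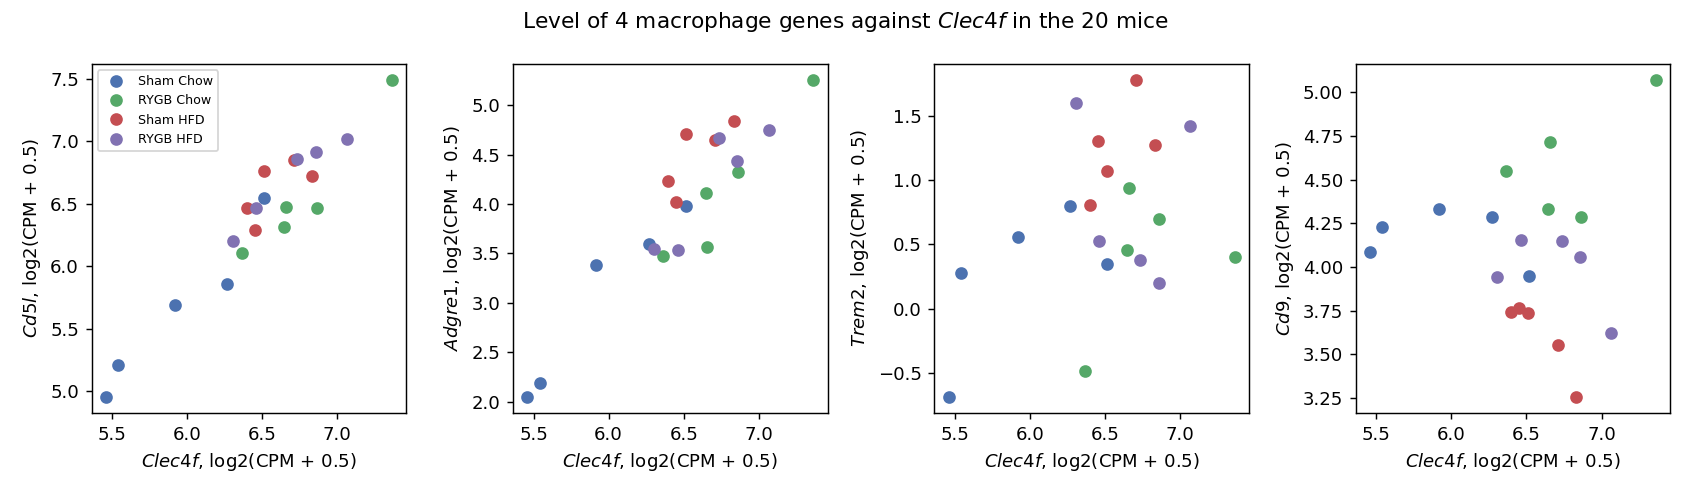
Levels of *Cd5l*, *Adgre1*, *Trem2* and *Cd9* against *Clec4f* in the 20 mice, each as log2 of CPM + 0.5 and colored by group. *Cd5l* (r = 0.96) and *Adgre1* (r = 0.92) rose along with *Clec4f* over the mice, and *Cd9* (r = 0.02) did not.

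Because *Clec4f* tracked the other Kupffer cell genes, the level of each member was also divided by it in every mouse. The log2 ratio of *Adgre1* to *Clec4f* lay between -3.41 and -2.53 in Sham Chow and between -2.43 and -1.80 in Sham HFD, without overlap. It lay between -3.09 and -2.11 in RYGB Chow and between -2.93 and -2.07 in RYGB HFD. That of *Cd68* to *Clec4f* overlapped between the sham groups, from -3.62 to -3.20 in Sham Chow and from -3.39 to -2.90 in Sham HFD. The ratios of *Vsig4*, *Timd4*, *Cd5l*, *Marco* and *Trem2* overlapped there too. Those of *Gpnmb* did not (-7.04 to -5.23 in Sham Chow, -5.08 to -4.65 in Sham HFD), at low counts. Nor did those of *Cd9*, lower in Sham HFD (-2.57 to -1.31 and -3.58 to -2.65). The share of all tested genes with such a ratio was not computed. The mean log2 ratio of *Vsig4* lay between -2.0002 and -1.91 over the 4 groups. On the same scale, *Cd9* to *Clec4f* was -1.76 ± 0.52 in Sham Chow and -2.97 ± 0.40 in Sham HFD (mean ± SD, n = 5).

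The genes most like each member over the 20 mice were mainly macrophage genes. *Csf1r*, the receptor for the growth factor that keeps macrophages alive, was first for *Clec4f* (r = 0.97) and for *Cd5l* (0.97), and *Sdc3* was first for *Adgre1* (0.97). *Cd5l* was also like *C1qb* (0.96), a chain of the complement protein C1q, *Adgre1* like *Fyb* (0.96) and *Cd68* like *Pld4*, *Laptm5* and *Ctss* (0.95, 0.94 and 0.93). *Timd4* was most like *Itgal* (0.90) and *P2ry13* (0.85), and *Marco* like *Siglece* (0.86), *Timd4* (0.85) and *Clec4a1* (0.84). *Gpnmb* was most like *Mmp12*, the macrophage elastase (0.91), followed by *Tlr12* (0.86) and *Ralgds* (0.83). *Trem2*, at low counts, was most like *Tenm3* (0.82), *Abcd2* (0.81) and *Phf6* (0.81). *Cd9* was most like *Dcaf6* (0.91), *Cyp4a31* (0.88), a cytochrome P450 of the fatty acid hydroxylase family, and *Spaca6* (0.87), none of which is a macrophage marker.

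Other genes of the same cells were read from lists of markers. Of 20 further macrophage genes, 18 were tested. In Sham Chow vs. Sham HFD 11 of them were higher and 0 lower, where 10.9% and 10.7% of all tested genes were called. The median log2 fold change of the 18 was 0.71. *Cd14*, the co-receptor for endotoxin, had the highest, 1.38 (0.29, adjusted p = 0.00202). *Csf1r* followed the Kupffer cell members with 0.81 (0.25, adjusted p = 0.0252), as did *C1qb* with 0.70 (0.18, adjusted p = 0.0104), the Fc receptor genes *Fcgr1* with 0.99 (adjusted p = 0.00835) and *Fcer1g* with 0.61 (adjusted p = 0.0111), and *Ctss*, a lysosomal protease, with 0.80 (adjusted p = 0.0177). *Lyz2* (0.74, adjusted p = 0.0517), *Tyrobp* (0.77, adjusted p = 0.0539), *C1qa* (0.53, adjusted p = 0.0964) and *Mrc1* (0.38, adjusted p = 0.406) did not pass. The count was 5 without Sham Chow 4 or without Sham Chow 5 and 7 without Sham HFD 4. With 1 mouse left out, the call of *Csf1r* was lost in 3 of 20 models. None of the 18 was called in Sham HFD vs. RYGB HFD, where 16.4% of all tested genes were, and their median was -0.12. At an unadjusted p-value under 0.05, 0 of the 18 passed, where 30.7% of all tested genes did.

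Of 13 further genes linked to Kupffer cells, 2 were higher (*Cfp*, properdin, and *Clec1b*, a C-type lectin) and 1 was lower (*C6*) in Sham Chow vs. Sham HFD, where 10.9% and 10.7% of all tested genes were called. The call of *Clec1b* was lost in 4 of the 20 models with 1 mouse left out. *C6*, a complement component that hepatocytes also make, had a mean of 232 CPM for Sham Chow, 76.1 for Sham HFD and 260.0 for RYGB HFD. Its log2 fold change was -1.61 (adjusted p = 9.9e-05) with diet in sham mice and 1.77 (adjusted p = 4.3e-05) with surgery on HFD. The other 2 called in Sham HFD vs. RYGB HFD, where 16.4% of all tested genes were called, were *Id1* (-1.49, adjusted p = 0.00625) and *Id3* (-1.12, adjusted p = 0.0193), targets of BMP signals in many liver cells. *Nr1h3*, which encodes the sterol-sensing receptor LXR alpha, had a log2 value of 0.0016 with diet in sham mice (0.06, adjusted p = 0.990) and did not pass.

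Of 20 further genes of lipid-associated macrophages, 18 were tested. In Sham Chow vs. Sham HFD, where 10.9% and 10.7% of all tested genes were called higher and lower, 11 were higher and 1, *Fabp5*, was lower (-3.00, adjusted p = 4.4e-06). Against Sham HFD, 8 were lower in RYGB HFD and 1, again *Fabp5*, was higher (2.36, adjusted p = 4.1e-05). Over all tested genes, 7.9% were called lower and 8.54% higher in the second contrast, and both contrasts share the Sham HFD mice. *Lgals1*, a galectin, had means of 23.2 ± 10.8 CPM for Sham Chow and 78.1 ± 13.7 for Sham HFD, and of 17.8 ± 6.33 for RYGB Chow and 11.4 ± 6.29 for RYGB HFD (n = 5 each). It rose by 1.76 on the log2 scale with diet in sham mice (adjusted p = 0.000905), and the surgery contrast on HFD gave -2.77 (adjusted p = 2.2e-05). *Cd36*, a fatty acid transporter, rose from 110.1 ± 40.5 CPM in Sham Chow to 299.9 ± 25.3 with HFD, and RYGB HFD mice had 104 ± 30.0 (1.45, adjusted p = 0.000229, and -1.53, adjusted p = 0.000149). *Mmp12*, the gene most like *Gpnmb*, was 0.486 ± 0.438, 4.59 ± 1.82 and 1.23 ± 0.748 CPM in these groups (3.18, adjusted p = 0.000465, and -1.89, adjusted p = 0.0128). *Cd63*, *Capg* and *Itgax*, the last of which encodes CD11c, were also called in both contrasts (1.498, 1.55 and 1.30 with diet in sham mice, and -1.24, -1.34 and -1.17 with surgery on HFD). With 1 mouse left out, *Itgax* missed the threshold in 4 of 20 models in the diet contrast and in 11 in the surgery contrast. *Lgals3* (1.30, adjusted p = 0.00115) and *Spp1* (0.74, adjusted p = 0.00710) were called with diet and did not pass in the surgery contrast on HFD (-0.58 and -0.30), and *Lpl* passed in neither. Several of these genes, among them *Cd36*, *Fabp5*, *Lgals1*, *Apoe* and *Spp1*, are also made by liver cells other than macrophages, so their change in whole liver is not a measure of macrophages alone.

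Of 9 genes of the Trem2 pathway, 8 were tested and 3 were higher in Sham Chow vs. Sham HFD, where 10.9% of all tested genes were, namely the kinase *Syk* (1.07, adjusted p = 0.00297), the lipase *Plcg2* (0.98, adjusted p = 0.00881) and the phosphatase *Inpp5d* (1.01, adjusted p = 0.00594). The apolipoprotein gene *Apoe* was lower with surgery on HFD (-0.31, adjusted p = 0.0447), a call that was lost in 11 of the 20 models with 1 mouse left out. It is a gene that hepatocytes express strongly.

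Of 12 monocyte genes, 7 were tested. In Sham Chow vs. Sham HFD 4 were higher, namely *Ccr2*, the chemokine receptor by which monocytes leave the marrow (1.56, adjusted p = 0.00160), *Clec7a* (1.34, adjusted p = 0.000303), *Cx3cr1* (1.17, adjusted p = 0.0406) and *Cd44* (1.002, adjusted p = 0.00827). Over all tested genes, 10.9% were called higher in this contrast. *Cx3cr1* missed the threshold in 7 of the 20 models with 1 mouse left out. With surgery on HFD, where 7.9% of all tested genes were called lower, 3 monocyte genes were lower, among them *Ccr2* (-1.11, adjusted p = 0.0163) and *Clec7a* (-0.80, adjusted p = 0.0152). Without Sham HFD 5, 1 monocyte gene was lower. Mean *Ccr2* was 1.60 CPM for Sham Chow and 4.72 for Sham HFD, against 1.83 for RYGB Chow and 2.19 for RYGB HFD. The summed level of the 12 genes was 14.8 to 23.8 CPM for Sham Chow and 33.2 to 50.9 for Sham HFD, and after bypass 17.6 to 34.7 for RYGB Chow and 22.5 to 34.5 for RYGB HFD. *Fcnb* was at 0 in all mice.

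Of 9 signals that maintain or recruit Kupffer cells, 8 were tested. In Sham Chow vs. Sham HFD, where 10.9% of all tested genes were called higher, 4 of the 8 were. They were *Csf1*, the ligand of the *Csf1r* receptor (0.74, adjusted p = 0.00448), *Tgfb1* (0.93, adjusted p = 0.00192), *Bmp10* (0.81, adjusted p = 0.0100) and *Il1b* (1.08, adjusted p = 0.0476), the last of which missed the threshold in 11 of the 20 models with 1 mouse left out. The second ligand, *Il34*, did not pass (0.46, adjusted p = 0.332). The endothelial signal *Bmp2* was lower with surgery on HFD (-0.999, adjusted p = 0.0280, lost in 5 of the 20 models) and the others were not called. Of 7 iron-recycling genes, which macrophages use to recover iron from red cells and which include *Marco*, 6 were tested. *Hmox1*, which degrades heme, was called with diet in sham mice (0.78, adjusted p = 0.00573) and in the opposite direction with surgery on HFD (-0.69, adjusted p = 0.0145). *Slc48a1*, a heme transporter, fell in RYGB HFD livers both against Sham HFD (-0.48, adjusted p = 0.00436) and against RYGB Chow (-0.43, adjusted p = 0.0322, lost in 5 of 20 models with 1 mouse left out, among them that without RYGB Chow 3). The metal transporter *Slc11a1* was higher with diet in sham mice (0.86, adjusted p = 0.0261, lost in 5 of 20 models with 1 mouse left out). *Spic*, the factor of iron-recycling macrophages, did not pass the filter on low counts.

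In Sham Chow vs. RYGB Chow 0 genes of these lists were called. At an unadjusted p-value under 0.05, 14 of the 18 macrophage genes passed, all of them higher in RYGB Chow, and 10.8% of all tested genes did. The summed level of the 20 listed macrophage genes was highest in RYGB Chow 3 (797 CPM, with the group's median at 579). The count of 14 is not given without that mouse. In RYGB Chow vs. RYGB HFD *Slc48a1* was the single gene called.

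Markers of other liver cells moved with the diet and surgery comparisons too. All 6 stellate cell markers were called higher in Sham Chow vs. Sham HFD, against 10.9% of all tested genes. The summed level of the 6 ran from 162 to 245 CPM in Sham Chow and from 308 to 383 CPM in Sham HFD. The call of *Des* rested on Sham HFD 4 (32.2 CPM, where the group's median was 4.998). Without that mouse its log2 fold change was 0.14 (adjusted p = 0.588). With 1 mouse left out, *Lrat*, *Dcn* and *Colec11* were called in all 20 models. The call of *Des* was lost in 15 of these 20 models, that of *Rgs5* in 11 and that of *Reln* in 4. In the same contrast 2 of 6 hepatocyte markers (*Apoa1* and *Cps1*) were lower, against 10.7% of all tested genes, with sums of 81318 to 101794 and 69827 to 82781 CPM. In Sham HFD vs. RYGB HFD 3 hepatocyte markers were higher and 1, *Ttr*, was lower, with sums of 97761 to 116608 CPM in RYGB HFD. There 1 stellate marker, *Dcn*, was lower, a call lost in 10 of the 20 models with 1 mouse left out. Over all tested genes, 8.54% were called higher and 7.9% lower in that contrast. The 6 endothelial markers gave 0 calls in either contrast. Most markers of other blood cells were too low to test (neutrophils 5 of 6, T cells 6 of 6, NK cells 5 of 5, dendritic cells 5 of 6, B cells 3 of 6), and of bile duct markers 2 of 6 were tested. The part of these cells in the fold changes of the macrophage genes was not tested. The labels name no sequencing batch, so no values within batches can be given.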

How the data were processed

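Per the submitters' processing notes, Trimmomatic 0.36 was used for trimming, HISAT2 2.1.0 for alignment to mm10 and featureCounts 1.5.0-p3 for counting. The table the authors deposited gives raw counts of each Ensembl gene, not normalized. Libraries were poly(A)-selected and keep strand, and the annotation release, the strand setting of the counting and the handling of multiply mapping reads are not given in the sources used here. The labels give each mouse's group, and replicates are separate mice.

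Symbols, exon lengths and positions came from GENCODE M21 (GRCm38), which named 54409 of the 54532 genes, and promoters from RefSeq. The filter of the study's methods, a CPM of 2 or more in 3 or more mice, left 12289 genes. They were fitted in 1 model of the 4 groups with TMM factors by edgeR 4.0.16 in R 4.3.3, and the quasi-likelihood test (two-sided) was adjusted after Benjamini and Hochberg over these genes. A call is an adjusted p-value under 0.05. For single members an exact permutation test of the mean of log2(CPM + 0.5) covered every split of 5 mice against 5. The biological coefficient of variation was 0.181, and TMM factors lay between 0.916 and 1.13. Reads carry no molecular identifiers, so a floor of 3 reads covers counting error only.

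The members and lists were chosen with earlier results of these data known. Named are all members, up to 5 called genes per list with the smallest p-values, 14 genes named in any case and the 3 tested genes most correlated with each member. *Cd63*, *Slc11a1* and the marker genes of other cells were named beside these after their values were seen. The values of 1 listed gene are not reported here. Other tools (DESeq2 1.42.0 and voom of limma 3.58.1), other scalings (RLE factors and the library size alone), other filters (none, and a CPM of 5 or more), the groups of each contrast alone, a replicate block and models without each mouse in turn served as alternatives. For the list genes they were added after the data were seen. The scripts were checked on simulated data in which 200 genes changed. Python 3.11.15 and matplotlib 3.10.9 drew the figures.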

Additional observations from a re-analysis of the deposited data

Results flagged for a closer look

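In total, 4 values lay apart from the other mice of their group, by a gap to the nearest mouse of more than 0.71 of the group's range, which chance gives in about 1 in 20 groups of 5. With 10 members in 4 groups, some such gaps arise by chance, and that of *Timd4* (0.711) only just passed. RYGB Chow 3 held 12.5 CPM of *Timd4* and 179.5 CPM of *Cd5l*, the highest values of all 20 mice for both genes. Sham Chow 2 held 1.55 CPM of *Gpnmb*, where the other 4 Sham Chow mice lay at 0.193 CPM and below. Sham HFD 5 held 3.38 CPM of *Gpnmb*, where the other 4 mice lay between 2.84 and 2.96.

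The diet effect on *Gpnmb* was called as different between sham and RYGB mice in edgeR's interaction test, at -3.56 on the log2 scale (adjusted p = 0.0440). That call was made in 4 of the 20 models with 1 mouse left out. It was not made with DESeq2 (adjusted p = 0.0503), limma-voom (adjusted p = 0.154) or the replicate block (adjusted p = 0.0833). The level of *Gpnmb* was 0.385 ± 0.655 CPM in Sham Chow and 2.98 ± 0.224 in Sham HFD, against 1.95 ± 1.42 in RYGB Chow and 1.21 ± 0.685 in RYGB HFD (mean ± SD, n = 5 mice each).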

How the results depend on the processing

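Of 1008 fold changes of members and listed genes under the alternatives other than leaving out a mouse, 951 kept their direction and their side of the threshold, 37 lost and 14 gained a call, and 6 reversed. Members called in Sham Chow vs. RYGB Chow were 2 with DESeq2, which called 0.749% of all genes it tested. In Sham Chow vs. Sham HFD, *Vsig4* passed with DESeq2 (adjusted p = 0.0463). There *Cd9* missed the threshold with library size only (adjusted p = 0.0524), and *Trem2* without a filter (adjusted p = 0.0719). In the surgery by diet interaction 0 members were called with DESeq2, limma-voom or the replicate block, and 0 with a CPM of at least 5, a filter that *Gpnmb*, the member called otherwise, did not pass. With only the groups of the contrast, 1 member was called in Sham HFD vs. RYGB HFD (*Gpnmb*) and 0 in RYGB Chow vs. RYGB HFD. With a CPM of at least 5, 8 of the 10 members and 3 monocyte genes were tested, against 7 monocyte genes with a CPM of 2. Of these 3, 1 was lower in Sham HFD vs. RYGB HFD and 2 were higher in Sham Chow vs. Sham HFD. The reversed values were uncalled: in RYGB Chow vs. RYGB HFD *Adgre1* with limma-voom (0.022) and the replicate block (0.054) and *Gpnmb* with limma-voom (0.23, against -0.67 in edgeR), in Sham HFD vs. RYGB HFD *Vsig4* (-0.0087) and *Cd5l* (-0.00056) with library size only, and in Sham Chow vs. Sham HFD *Nr1h3* without a filter (-0.0084). The causes were not tested.

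With 1 mouse left out, members called ran from 0 to 0 in Sham Chow vs. RYGB Chow, 0 to 1 in Sham HFD vs. RYGB HFD, 4 to 7 in Sham Chow vs. Sham HFD, 0 to 1 in RYGB Chow vs. RYGB HFD and 0 to 2 in the interaction. In Sham Chow vs. Sham HFD, higher calls ran from 5 to 14 among macrophage genes, 9 to 11 among lipid-associated macrophage genes and 3 to 4 among monocyte genes. In Sham HFD vs. RYGB HFD, lower calls ran from 6 to 9 among lipid-associated macrophage genes and 1 to 4 among monocyte genes. Fold changes that reversed were those of *Trem2* in Sham Chow vs. RYGB Chow (-0.067 to 0.44), *Vsig4* (-0.022 to 0.18) and *Cd68* (-0.21 to 0.014) in Sham HFD vs. RYGB HFD, *Nr1h3* in Sham Chow vs. Sham HFD (-0.033 to 0.030), *Cd9* in the interaction (-0.14 to 0.073), and in RYGB Chow vs. RYGB HFD *Clec4f* (-0.22 to 0.063), *Vsig4* (-0.22 to 0.057), *Cd5l* (-0.051 to 0.38), *Marco* (-0.052 to 0.69), *Adgre1* (-0.18 to 0.37) and *Cd68* (-0.018 to 0.28).

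The replicate numbers shared by the groups did not pair the mice: correlations of same-numbered mice ran from -0.257 to 0.165, and 3 of 20 mice correlated best with their own number. With the replicate block, 6 members were called in Sham Chow vs. Sham HFD, where *Trem2* missed the threshold. All 10 members passed the filter, so the test planned for members below it, with its pseudocounts, had none to run on. Depth limits *Trem2* and *Gpnmb*, which held at most 77 reads in a mouse.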
